A study of Homo sapiens with 36 samples.

Results

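The p53 target genes CDKN1A, MDM2, GDF15, TP53INP1, SESN1, BTG2, FAS, ZMAT3 and RRM2B were followed in HK-2 cells, a cell line derived from the proximal tubule epithelium of a human kidney and made immortal. The 9 genes were chosen by name, as genes known to be switched on by p53, and each was read from whichever of its array probe sets was brightest on average across the 36 arrays. A probe set is the group of short probes that reads 1 transcript. Of the 9 genes, 8 had a probe set that carried their symbol alone and passed a filter on dim signals (a log2 value above 4 on at least 3 arrays), among 11092 genes tested in all. BTG2, an antiproliferative gene, was not analysed here. The arrays formed 12 groups of 3 biological replicates in 2 sets, all of the same line with no genetic change between groups. The first set of 18 arrays held cells given CdCl, Di or the control vehicle for 12 or 48 h. The second set of 18 arrays held cells given Kbr at a low or a high dose, or vehicle, for 24 or 48 h. The labels do not spell out Di and Kbr, and the amounts given were not in the sources used here. All cells were seeded 24 h before exposure and treated close to confluence, and each treated group was compared with the vehicle group of its own set and time. Values are log2 expression, so a difference of 1 is a doubling; differences are given ± their standard error. A gene is said to have risen or fallen where limma's moderated test, adjusted by Benjamini-Hochberg over all 11092 genes, gave a p under 0.05. In RNA from whole cultures, fewer cells that express a gene and less RNA per cell cannot be told apart.

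The p53 protein is a transcription factor that is stabilised by DNA damage and other stresses and then binds a paired element near its target genes. Its targets hold the cell cycle (CDKN1A), feed back on p53 itself (MDM2), signal to other cells or to death pathways (GDF15, FAS), help repair or supply nucleotides (RRM2B) and restrain growth signalling (SESN1). Several of them, GDF15 and SESN1 among them, are also driven by other stress-responsive factors. HK-2 cells were immortalised with the transforming genes of a human papillomavirus, among them one whose protein is known to direct p53 to degradation. These statements are background to the measurements and were not tested here.

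The p53 element is 20 bases long and consists of 2 half-sites of 10 bases, each with a central tetramer. RefSeq promoter windows (GRCh38.p14, 250 bases before to 50 bases after an annotated start) were searched on both strands for the p53 consensus with no spacer and at most 2 mismatches. Windows were at hand for 7 of the 9 genes, 15 windows in all, and 3 windows of 2 genes, FAS and MDM2, held a match. Over all genes 228 of 35116 windows held one (0.649%), or 224 of 27305 genes (0.82%). The sites are shown because they are the stretches of these promoters that resemble the p53 element, with the central tetramer of each half-site in capitals. The FAS match lies at chr10:88991309-88991328 on the plus strand, from -122 to -103 relative to an annotated start, and the MDM2 match at chr12:68808923-68808942 on the plus strand, from -94 to -75; each has 2 mismatches.
FAS site: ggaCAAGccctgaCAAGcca
MDM2 site: ggtCAAGttcagaCACGttc
For CDKN1A and GDF15, the 2 members with the largest rises, no window held such a match, which says only that those letters are absent there. Their 250 bases before the start are printed with every tetramer that starts with C, ends with G and has A or T at both middle positions in capitals; these are the possible central tetramers of a half-site, so they overlap with the element searched above. CDKN1A, at chr6:36678464-36678713 on the plus strand, has 1 such tetramer, and GDF15, at chr19:18385908-18386157 on the plus strand, has 2. The median over all windows is 3 in the same 250 bases, and 92.8% of windows have at least 1.
CDKN1A promoter: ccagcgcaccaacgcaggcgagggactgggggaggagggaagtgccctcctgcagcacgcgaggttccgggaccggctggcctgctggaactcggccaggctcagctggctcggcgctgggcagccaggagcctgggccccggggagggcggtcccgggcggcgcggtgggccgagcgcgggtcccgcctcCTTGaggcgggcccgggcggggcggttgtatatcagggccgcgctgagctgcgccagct
GDF15 promoter: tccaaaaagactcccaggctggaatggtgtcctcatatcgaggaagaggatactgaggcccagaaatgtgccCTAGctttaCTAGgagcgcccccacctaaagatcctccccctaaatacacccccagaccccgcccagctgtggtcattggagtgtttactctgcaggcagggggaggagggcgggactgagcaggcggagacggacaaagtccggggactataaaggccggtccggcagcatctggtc
A match is a description of the sequence, and binding at these sites was not measured.

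Replicate arrays of a group correlated at 0.982 to 0.995, and no pair of arrays was identical. All 5 epithelial markers (KRT8, KRT18, KRT19, EPCAM, CDH1) passed the filter. Of 10 proximal tubule markers, SLC3A1, CDH6 and PAX8 passed, while the defining transporters and enzymes AQP1, GGT1, ANPEP, LRP2, CUBN, SLC34A1 and SLC5A2 stayed at background, with group means of at most 3.20. None of 3 endothelial and none of 3 leukocyte markers passed, and of 3 fibroblast markers COL1A1 and DCN passed while PDGFRB did not. The log2 gap between the 3′ and 5′ actin control probe sets, a measure of RNA quality, had group means of 1.40 to 1.84 in the CdCl and Di set and 0.87 to 1.06 in the Kbr set. The ends of the first range were Di at 12 h (1.40 ± 0.16, SD, n = 3) and its own vehicle (1.84 ± 0.14), so the measure moved with that comparison as well as between the sets. Its part in the Di values at 12 h and in values set across the 2 sets was not tested.

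CDKN1A was the only member that rose in all 8 comparisons with vehicle, and GDF15 rose in 6 of them, whereas TP53INP1, SESN1, FAS, ZMAT3 and RRM2B fell at 1 or both times under CdCl, and TP53INP1, SESN1 and ZMAT3 under Kbr. In no comparison with vehicle did all 8 genes pass the test in 1 direction. Under Di no member passed as lower, a count that for 8 genes is not far from the shares of all genes given next. With Di at 12 h, 1 member rose and 0 fell, against 1.67% of all genes that rose and 4.6% that fell. With Di at 48 h, 4 rose and 0 fell, against 19.1% and 23.9% of all genes. With CdCl at 12 h, 2 rose and 4 fell, against 13.4% and 30.5%. After 48 h of CdCl, 1 rose and 4 fell, against 20.7% and 22%. Low-dose Kbr raised 2 and lowered 0 at 24 h, against 6.93% and 8.28%, and raised 3 and lowered 3 at 48 h, against 23.8% and 23.2%. High-dose Kbr raised 3 and lowered 2 at 24 h, against 15.4% and 25.3%, and raised 3 and lowered 3 at 48 h, against 27.3% and 34.5%. With Kbr at 48 h these counts are near the background shares, as is the count of 1 that rose with CdCl at 48 h. The median difference of the 8 members was 0.52 with Di at 48 h and -0.55 with CdCl at 12 h, where the medians of all genes were -0.01 and -0.16. In the Kbr set, arrays with the same replicate number deviated together, and with that number as a replicate block MDM2 (adjusted p = 0.0251) and TP53INP1 (adjusted p = 0.0274) also passed at the low dose at 24 h, which made 4 members called in place of 2, beside 2720 genes in all in place of 769 higher and 918 lower.

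**Figure D1:**
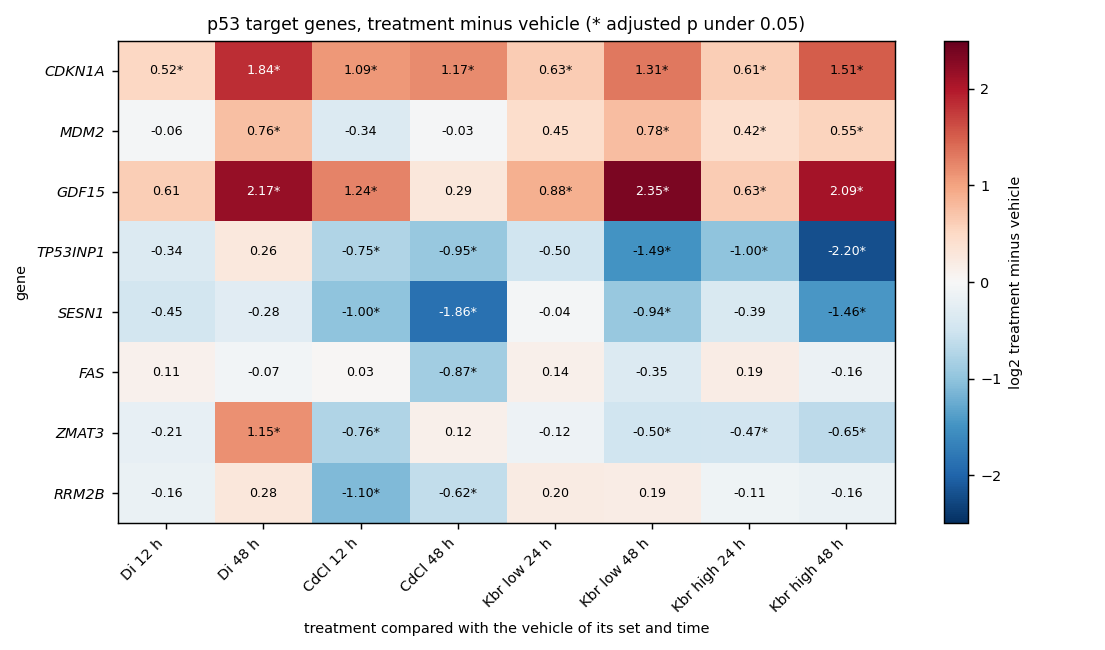
Log2 difference from vehicle (colour and printed value) of the 8 p53 target genes (rows) in the 8 comparisons (columns), means of 3 arrays against 3; an asterisk marks an adjusted p under 0.05. The CDKN1A row is red with an asterisk in all 8 columns, and the TP53INP1 and SESN1 rows are blue under CdCl and under Kbr at 48 h.

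CDKN1A encodes p21, an inhibitor of cyclin-dependent kinases and a classic p53 target. At 12 h the vehicle arrays of the CdCl and Di set read 9.42, 9.48 and 9.54 for CDKN1A, the Di arrays 9.94, 9.99 and 10.06 and the CdCl arrays 10.49, 10.52 and 10.70. At 48 h of the same set CDKN1A read 9.85, 9.88 and 9.92 with vehicle, 11.65, 11.80 and 11.71 with Di and 11.15, 11 and 11.02 with CdCl. In this set every treated array lay above every vehicle array of its time, and the order of the treatments was turned between the 2 times: CdCl was above Di at 12 h and below it at 48 h. In the Kbr set at 24 h CDKN1A was at 9.22, 9.12 and 9.22 with vehicle, 9.86, 9.91 and 9.68 at the low dose and 9.88, 9.84 and 9.68 at the high dose. By 48 h those values were 9.26, 8.70 and 9.11 with vehicle, 10.48, 10.25 and 10.27 at the low dose and 10.50, 10.53 and 10.56 at the high dose. In the Kbr set too, no treated array overlapped with vehicle. The differences from vehicle were 0.52 ± 0.10 with Di at 12 h (adjusted p = 0.00252) and 1.84 ± 0.10 at 48 h (adjusted p = 1.82e-14), the latter a 3.57-fold rise. With CdCl they were 1.09 ± 0.10 at 12 h (adjusted p = 1.8e-09) and 1.17 ± 0.10 at 48 h (adjusted p = 2.61e-10). The CdCl difference changed by 0.08 between the times (95% interval -0.21 to 0.38), whereas the Di difference grew by 1.32. Kbr gave 0.63 ± 0.10 and 0.61 ± 0.10 at 24 h for the low and high dose, and 1.31 ± 0.10 and 1.51 ± 0.10 at 48 h. Over the 12 groups CDKN1A was highest with Di at 48 h, 11.72 ± 0.08 (SD, n = 3), then with CdCl at 48 h, 11.06 ± 0.08, and lowest in the 48 h vehicle of the Kbr set, 9.02 ± 0.29. Neighbours in that order that differed by less than their spread included CdCl at 12 h and high-dose Kbr at 48 h, and the 2 Kbr doses at 24 h.

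**Figure D2:**
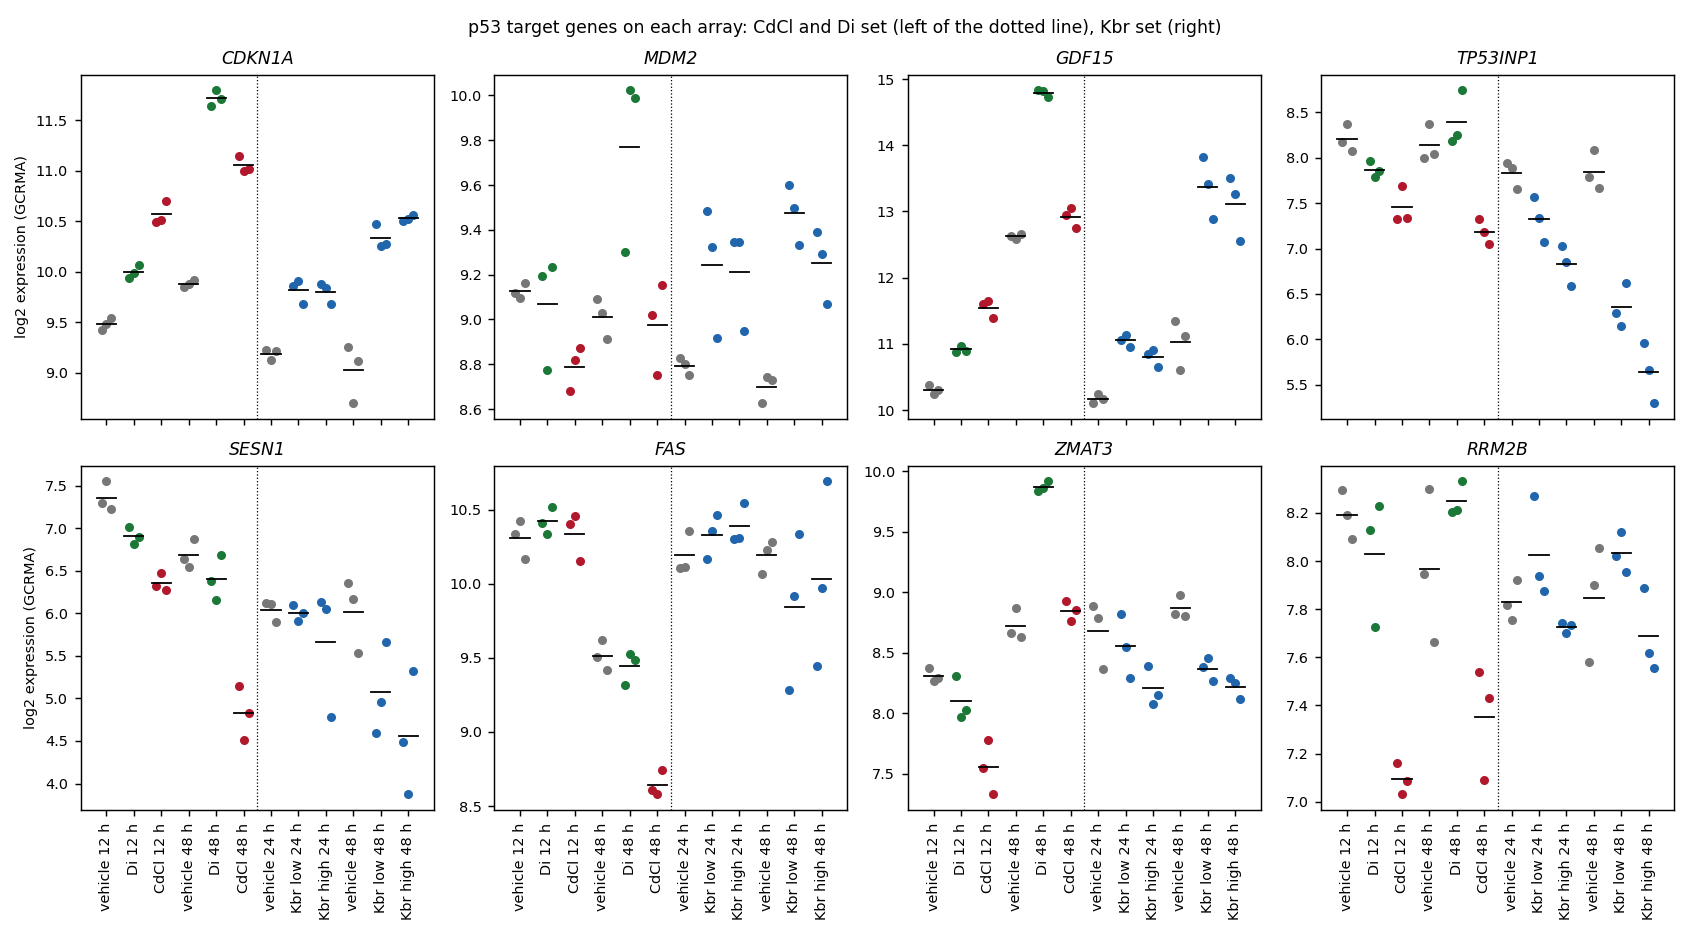
Log2 expression of each p53 target gene (panels) on every array (points) of the 12 groups, with the group mean as a bar; the vertical scale differs between panels. CDKN1A lies above its vehicle in every treated group, and SESN1 and TP53INP1 are lowest under high-dose Kbr at 48 h.

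MDM2 encodes the ubiquitin ligase that marks p53 for degradation and so closes a feedback loop. MDM2 read 9.12, 9.09 and 9.16 on the 12 h vehicle arrays of the first set, 9.19, 8.77 and 9.24 with Di and 8.68, 8.82 and 8.87 with CdCl. The corresponding 48 h values of MDM2 were 9.09, 9.03 and 8.91 for vehicle, 9.30, 10.02 and 9.99 for Di and 9.02, 8.75 and 9.15 for CdCl. With Di at 48 h, 2 arrays lay close together and the third was lower, at 9.30, still above all vehicle arrays. On the 24 h arrays of the Kbr set MDM2 stood at 8.83, 8.80 and 8.75 for vehicle, 9.48, 9.32 and 8.92 for the low dose and 9.35, 9.34 and 8.95 for the high dose. On the 48 h arrays it stood at 8.63, 8.75 and 8.73 for vehicle, 9.60, 9.50 and 9.33 for the low dose and 9.39, 9.29 and 9.07 for the high dose. All Kbr arrays lay above the vehicle arrays of their time. MDM2 rose with Di at 48 h by 0.76 ± 0.16 (adjusted p = 0.000307), a 1.69-fold change, and with Kbr at 48 h by 0.78 ± 0.16 at the low dose (adjusted p = 0.000248) and 0.55 ± 0.16 at the high dose (adjusted p = 0.00402). At 24 h high-dose Kbr gave 0.42 ± 0.16 (adjusted p = 0.038) and the low dose 0.45 ± 0.16 (adjusted p = 0.0578). The call at the high dose at 24 h was lost without the filter (adjusted p = 0.0654) and when any 1 of 5 arrays was left out (adjusted p between 0.0702 and 0.133): each of the 3 vehicle arrays and high-dose replicates 1 and 2. With CdCl the values were -0.34 ± 0.16 at 12 h (adjusted p = 0.0923) and -0.03 ± 0.16 at 48 h (adjusted p = 0.887), and with Di at 12 h -0.06 ± 0.16. With the mean of its passing probe sets MDM2 passed as lower with CdCl at 12 h (-0.24, adjusted p = 0.0251). MDM2 was highest with Di at 48 h, 9.77 ± 0.41, and lowest in the 48 h vehicle of the Kbr set, 8.70 ± 0.06; the 9 groups from high-dose Kbr at 48 h to CdCl at 12 h lay between 9.25 and 8.79, each within its neighbour's spread.

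GDF15 encodes a secreted cytokine of the TGF-beta family that many cells release under stress. Cells given vehicle for 12 h had GDF15 at 10.38, 10.25 and 10.30, beside 10.88, 10.97 and 10.90 with Di and 11.61, 11.64 and 11.39 with CdCl. After 48 h GDF15 was at 12.63, 12.58 and 12.66 with vehicle, at 14.83, 14.81 and 14.73 with Di and at 12.95, 13.05 and 12.74 with CdCl. The vehicle arrays themselves differed by more than 2 between the times, and the Di arrays at 48 h were the highest of all 36. Kbr-set cultures at 24 h had GDF15 at 10.10, 10.25 and 10.17 (vehicle), 11.06, 11.14 and 10.96 (low dose) and 10.84, 10.90 and 10.66 (high dose). Their 48 h counterparts had 11.35, 10.61 and 11.11 (vehicle), 13.82, 13.42 and 12.88 (low dose) and 13.51, 13.27 and 12.55 (high dose). Each treated group lay wholly above its vehicle, although replicates of the Kbr set at 48 h spread over almost 1 within a dose. GDF15 rose by 2.17 ± 0.19 with Di at 48 h (adjusted p = 2.58e-10), 4.50-fold, and by 1.24 ± 0.19 with CdCl at 12 h (adjusted p = 7.28e-06). It rose at both Kbr doses, by 0.88 ± 0.19 (low) and 0.63 ± 0.19 (high) at 24 h and by 2.35 ± 0.19 (low) and 2.09 ± 0.19 (high) at 48 h. Adjusted p was 0.00978 at the high dose at 24 h, and 0.064 with the Kbr set fitted alone. The difference with CdCl at 48 h was 0.29 ± 0.19 (adjusted p = 0.227) and that with Di at 12 h 0.61 ± 0.19 (adjusted p = 0.0528), neither past the threshold. Both did pass when the first set was fitted by itself (adjusted p = 0.0103 and 0.000712), a fit in which the Kbr arrays do not enter the estimate of spread. The highest group mean was 14.79 ± 0.05 (Di, 48 h), followed by the low and high Kbr doses at 48 h, 13.37 ± 0.47 and 13.11 ± 0.50, which did not differ beyond their spread, and the lowest was 10.17 ± 0.07 in the 24 h vehicle of the Kbr set.

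FAS encodes a death receptor of the cell surface. It fell with CdCl at 48 h and did not pass the test in any of the other 7 comparisons with vehicle. At 12 h the vehicle arrays of the CdCl and Di set read 10.34, 10.42 and 10.17 for FAS, the Di arrays 10.41, 10.34 and 10.52 and the CdCl arrays 10.40, 10.46 and 10.16. At 48 h of the same set FAS read 9.51, 9.62 and 9.42 with vehicle, 9.31, 9.53 and 9.48 with Di and 8.61, 8.58 and 8.74 with CdCl. All 3 CdCl arrays at 48 h were below every other array of the study. In the Kbr set at 24 h FAS was at 10.10, 10.11 and 10.36 with vehicle, 10.16, 10.35 and 10.47 at the low dose and 10.30, 10.31 and 10.55 at the high dose. By 48 h those values were 10.07, 10.23 and 10.28 with vehicle, 9.28, 9.92 and 10.33 at the low dose and 9.44, 9.97 and 10.69 at the high dose. At 48 h the Kbr replicates of 1 dose spread over more than 1, far more than the vehicle arrays. The difference with CdCl at 48 h was -0.87 ± 0.21 (adjusted p = 0.00111), a 1.83-fold fall. With Kbr at 48 h it was -0.35 ± 0.21 at the low dose (95% interval -0.77 to 0.08) and -0.16 ± 0.21 at the high dose (-0.58 to 0.27). A single array moved each of these values by more than 1.5 times: without replicate 3 of the dose FAS passed as lower, at -0.59 for the low dose (adjusted p = 0.0239) and -0.48 for the high dose (adjusted p = 0.0279). FAS was highest with Di at 12 h, 10.42 ± 0.09, and lowest with CdCl at 48 h, 8.64 ± 0.09; each of the 7 groups at the top of the order lay within its neighbour's spread.

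TP53INP1, a stress-induced nuclear protein that takes part in autophagy and p53-dependent death, fell under CdCl and under Kbr and did not pass the test under Di. TP53INP1 read 8.18, 8.37 and 8.07 on the 12 h vehicle arrays of the first set, 7.97, 7.79 and 7.85 with Di and 7.33, 7.69 and 7.34 with CdCl. The corresponding 48 h values of TP53INP1 were 8.0, 8.37 and 8.04 for vehicle, 8.18, 8.25 and 8.74 for Di and 7.32, 7.18 and 7.05 for CdCl. CdCl arrays were below vehicle at both times, whereas the Di arrays at 48 h overlapped with vehicle. On the 24 h arrays of the Kbr set TP53INP1 stood at 7.94, 7.88 and 7.65 for vehicle, 7.57, 7.33 and 7.07 for the low dose and 7.03, 6.86 and 6.59 for the high dose. On the 48 h arrays it stood at 7.79, 8.09 and 7.66 for vehicle, 6.29, 6.15 and 6.62 for the low dose and 5.96, 5.67 and 5.30 for the high dose. The order vehicle, low dose, high dose was seen at both times with no overlap between vehicle and either dose. TP53INP1 fell with CdCl (-0.75 ± 0.17 at 12 h, adjusted p = 0.000904, and -0.95 ± 0.17 at 48 h, adjusted p = 6.21e-05). It also fell with Kbr at 48 h, by 1.49 ± 0.17 at the low dose (adjusted p = 1.06e-07) and by 2.20 ± 0.17 at the high dose (adjusted p = 1.77e-11), the latter 4.61-fold. At 24 h the high dose gave -1.0 ± 0.17 (adjusted p = 4.6e-05) and the low dose -0.50 ± 0.17 (adjusted p = 0.0508; 0.0274 with the replicate block). With Di it stood at -0.34 ± 0.17 at 12 h and 0.26 ± 0.17 at 48 h, neither past the threshold. Its highest group mean was 8.39 ± 0.30 (Di, 48 h), beside 8.21 ± 0.15 and 8.14 ± 0.20 in the 12 and 48 h vehicles of that set, and its lowest 5.64 ± 0.33 (high-dose Kbr, 48 h), which stood apart from the next, 6.35 ± 0.24.

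SESN1 encodes a sestrin, which restrains the growth kinase mTORC1 under stress. It fell under CdCl at both times and under both Kbr doses at 48 h. Cells given vehicle for 12 h had SESN1 at 7.30, 7.55 and 7.23, beside 7.01, 6.81 and 6.90 with Di and 6.33, 6.48 and 6.27 with CdCl. After 48 h SESN1 was at 6.64, 6.55 and 6.87 with vehicle, at 6.38, 6.16 and 6.69 with Di and at 5.15, 4.51 and 4.83 with CdCl. CdCl arrays lay below vehicle at both times, with no overlap. Kbr-set cultures at 24 h had SESN1 at 6.13, 6.11 and 5.90 (vehicle), 6.10, 5.91 and 6.0 (low dose) and 6.14, 6.06 and 4.78 (high dose). Their 48 h counterparts had 6.36, 6.17 and 5.53 (vehicle), 4.60, 4.96 and 5.67 (low dose) and 4.49, 3.87 and 5.33 (high dose). High-dose replicate 3 at 24 h, at 4.78, was far below the other 2, replicates of the Kbr set were far apart at 48 h, and 1 low-dose array at 48 h was above the lowest vehicle array. The differences with CdCl were -1.0 ± 0.31 at 12 h (adjusted p = 0.0092) and -1.86 ± 0.31 at 48 h (adjusted p = 1.49e-05), a 3.62-fold fall. At 48 h the high Kbr dose gave -1.46 ± 0.31 (adjusted p = 0.000157) and the low dose -0.94 ± 0.31 (adjusted p = 0.0126). The low-dose call was lost with the Kbr set fitted alone (adjusted p = 0.0641), without vehicle replicate 1 (0.0718) and without low-dose replicate 1 (0.0923). At 24 h SESN1 gave -0.39 ± 0.31 (high) and -0.04 ± 0.31 (low), and with Di -0.45 ± 0.31 at 12 h and -0.28 ± 0.31 at 48 h, none past the threshold. The highest group mean was 7.36 ± 0.17 in the 12 h vehicle and the lowest 4.56 ± 0.73 with high-dose Kbr at 48 h, within the spread of CdCl at 48 h, 4.83 ± 0.32.

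ZMAT3, a zinc finger protein that binds RNA, rose with Di at 48 h and fell with Kbr at the same time. At 12 h the vehicle arrays of the CdCl and Di set read 8.37, 8.27 and 8.29 for ZMAT3, the Di arrays 8.31, 7.97 and 8.03 and the CdCl arrays 7.55, 7.78 and 7.33. At 48 h of the same set ZMAT3 read 8.66, 8.87 and 8.63 with vehicle, 9.84, 9.86 and 9.92 with Di and 8.93, 8.76 and 8.85 with CdCl. The 3 Di arrays at 48 h were the highest of all 36, about 1 above their vehicle, and the CdCl arrays at 12 h were the 3 lowest of their set. In the Kbr set at 24 h ZMAT3 was at 8.89, 8.79 and 8.36 with vehicle, 8.82, 8.55 and 8.29 at the low dose and 8.39, 8.08 and 8.15 at the high dose. By 48 h those values were 8.82, 8.98 and 8.81 with vehicle, 8.38, 8.46 and 8.27 at the low dose and 8.29, 8.25 and 8.12 at the high dose. Both doses lay below vehicle at 48 h with no overlap; at 24 h the high dose overlapped with vehicle by 1 array. ZMAT3 rose with Di at 48 h by 1.15 ± 0.13 (adjusted p = 4.17e-08), 2.22-fold. It fell with CdCl at 12 h (-0.76 ± 0.13, adjusted p = 3.91e-05) and was at 0.12 ± 0.13 at 48 h (adjusted p = 0.485). With Kbr it fell at the high dose, by 0.47 ± 0.13 at 24 h (adjusted p = 0.00539) and 0.65 ± 0.13 at 48 h (adjusted p = 0.000109), and at the low dose at 48 h (-0.50 ± 0.13, adjusted p = 0.0027). The call at 24 h was lost without vehicle replicate 1 (-0.37, adjusted p = 0.0513). The order ran from Di at 48 h, 9.87 ± 0.04, down to CdCl at 12 h, 7.55 ± 0.22; the 48 h vehicles of both sets and CdCl at 48 h, next below the top, lay within their spread of each other.

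RRM2B encodes the p53-inducible small subunit of ribonucleotide reductase, which supplies deoxynucleotides for repair. It fell with CdCl at both times and did not pass the test in the other 6 comparisons with vehicle. RRM2B read 8.30, 8.19 and 8.09 on the 12 h vehicle arrays of the first set, 8.13, 7.73 and 8.23 with Di and 7.16, 7.03 and 7.09 with CdCl. The corresponding 48 h values of RRM2B were 7.94, 8.30 and 7.66 for vehicle, 8.20, 8.21 and 8.33 for Di and 7.54, 7.09 and 7.43 for CdCl. All CdCl arrays were below all vehicle arrays of their time. On the 24 h arrays of the Kbr set RRM2B stood at 7.82, 7.75 and 7.92 for vehicle, 8.27, 7.94 and 7.88 for the low dose and 7.74, 7.70 and 7.73 for the high dose. On the 48 h arrays it stood at 7.58, 7.90 and 8.05 for vehicle, 8.02, 8.12 and 7.96 for the low dose and 7.89, 7.62 and 7.56 for the high dose. In this set the groups lay close together, with every array between 7.56 and 8.27. The differences with CdCl were -1.10 ± 0.15 at 12 h (adjusted p = 9.3e-07) and -0.62 ± 0.15 at 48 h (adjusted p = 0.00121), falls of 2.14-fold and 1.53-fold. Di at 48 h gave 0.28 ± 0.15 (adjusted p = 0.13). That value passed without vehicle replicate 2 (0.44, adjusted p = 0.0212), the highest of the 3 vehicle arrays, and with arrays centred on their medians (0.34, adjusted p = 0.0281). It also passed after quantile normalization (0.31, adjusted p = 0.0491). The highest group mean was 8.25 ± 0.07 (Di, 48 h) and the lowest 7.09 ± 0.07 (CdCl, 12 h); low-dose Kbr at both times and Di at 12 h, each at 8.03, did not differ beyond their spread.

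CdCl moved the median of all genes by -0.16 at 12 h. Relative to that median the CdCl differences at 12 h were 1.25 for CDKN1A, 1.40 for GDF15, -0.59 for TP53INP1, -0.84 for SESN1, -0.60 for ZMAT3 and -0.94 for RRM2B, so that no direction turned. Centring each array on its median changed the split of all genes called at CdCl 12 h from 1484 higher and 3386 lower to 1800 and 2488, that of Di 12 h from 185 and 510 to 260 and 264 (235 and 362 after quantile normalization), and that of high-dose Kbr at 24 h from 1711 and 2806 to 2195 and 2295. The mean of the 5 epithelial markers was 10.26 to 10.81 in the 4 Kbr-treated groups and 11.31 and 11.48 in their vehicles. It was also lower with Di at 48 h (10.90, beside 11.47 with vehicle and 11.49 with CdCl) and with CdCl at 12 h (10.96, beside 11.24 with vehicle and 11.17 with Di). Among the epithelial markers CDH1 had the widest range of group means, 4.98 to 9.07. The mean of the 10 proximal tubule markers was 4.36 with Di and 4.56 with CdCl at 48 h, beside 4.97 with vehicle, and 4.64 to 4.89 in the Kbr-treated groups, beside 5.03 and 5.15. All but SLC3A1, CDH6 and PAX8 stayed at background, so this mean moved mainly with those 3. Their group means ran from 6.14 to 9.37, from 7.86 to 12.84 and from 9.76 to 11.13. The part of these shifts in the differences of the p53 targets was not tested. The mean of the 3 fibroblast markers was 5.83 to 7.01 in the Kbr-treated groups, 7.36 and 7.75 in their vehicles and 6.58 to 7.63 in the CdCl and Di set, where Di at 48 h was lowest beside a vehicle of 6.98; its part was not tested either.

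CdCl and Di were compared directly at the same times. At 48 h all 8 members were lower with CdCl than with Di, against 17.1% of all genes called lower and 20.5% called higher. No member's CdCl and Di arrays overlapped, but the share of all genes without such overlap was not counted. The differences (CdCl minus Di) ranged from -1.88 for GDF15 (95% interval -2.27 to -1.49) and -1.58 for SESN1 (-2.20 to -0.95) to -0.66 for CDKN1A (-0.87 to -0.46). TP53INP1 stood at -1.21 ± 0.17, ZMAT3 at -1.03 ± 0.13, RRM2B at -0.90 ± 0.15, MDM2 at -0.80 ± 0.16 and FAS at -0.80 ± 0.21. The largest adjusted p among the 8 was 0.00303, for FAS. At 12 h the picture was mixed: 2 members were higher with CdCl, against 13.6% of all genes, and 2 lower, against 22.1%. CDKN1A (0.57 ± 0.10) and GDF15 (0.63 ± 0.19) were higher with CdCl, and ZMAT3 (-0.55 ± 0.13) and RRM2B (-0.94 ± 0.15) were lower. The intervals for MDM2 (-0.61 to 0.05), TP53INP1 (-0.77 to -0.06), SESN1 (-1.18 to 0.08) and FAS (-0.51 to 0.34) went with adjusted p-values over the threshold. With the first set fitted alone TP53INP1 (adjusted p = 0.0362) and SESN1 (adjusted p = 0.0106) also passed as lower with CdCl, and TP53INP1 did so without CdCl replicate 2 (adjusted p = 0.0342). MDM2 passed as lower with CdCl at 12 h with the mean of its passing probe sets (-0.24, adjusted p = 0.0375). Of the 28 other p53 target genes tested, 13 were lower and 4 higher with CdCl than with Di at 48 h, and 8 lower and 6 higher at 12 h.

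**Figure D3:**
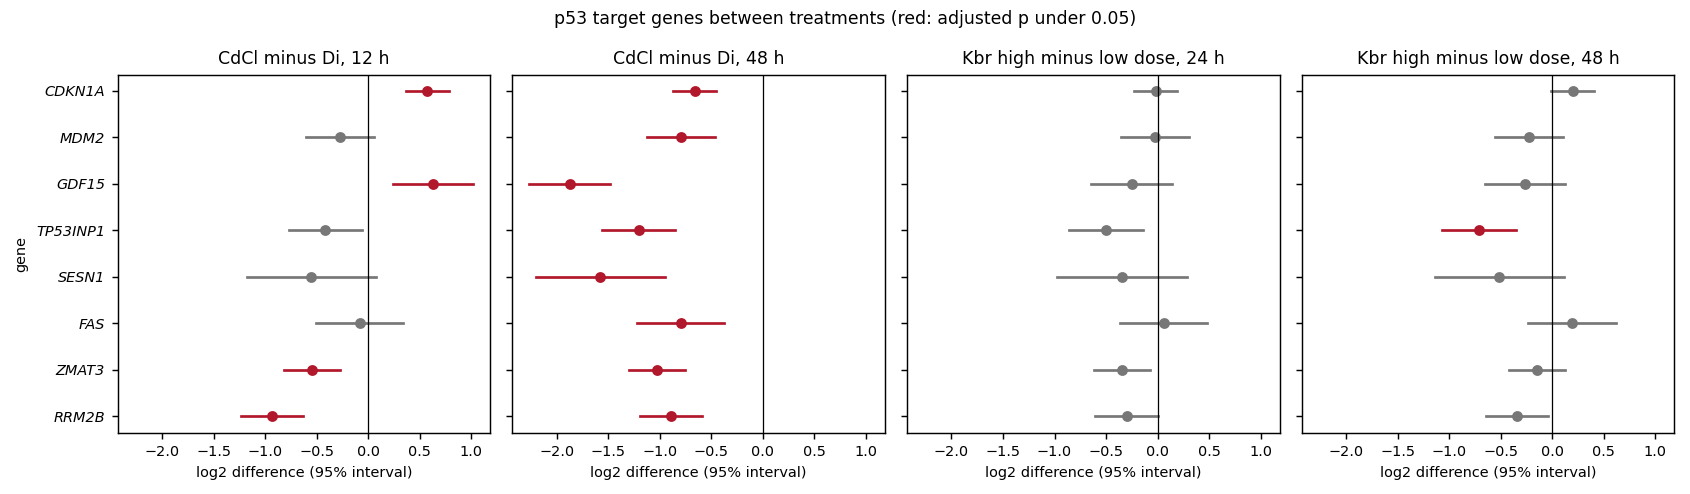
Log2 difference of each p53 target gene between CdCl and Di (left pair of panels) and between the high and low Kbr dose (right pair), as points with 95% intervals; red marks an adjusted p under 0.05. At 48 h all 8 genes lie to the left of 0 for CdCl minus Di, and only TP53INP1 is red between the Kbr doses.

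The 2 Kbr doses differed in 0 of 8 members at 24 h, against 4.39% of all genes, and in 1 of 8 at 48 h, against 23.8%. That member was TP53INP1, lower at the high dose by 0.71 ± 0.17 (adjusted p = 0.00335). At 24 h its difference was -0.50 ± 0.17 (adjusted p = 0.101), and limma's unadjusted p under 0.05 at that time was met by 3 of the 8. With the replicate block ZMAT3 also passed at 24 h (-0.35, adjusted p = 0.0462), and the genes called at that time were 1171 in place of 487. For CDKN1A the intervals of the high minus low difference were -0.22 to 0.19 at 24 h and -0.01 to 0.40 at 48 h, and for GDF15 -0.64 to 0.14 and -0.65 to 0.13; neither gene passed the test. Leaving out 1 array brought 3 further calls at 48 h. GDF15 went from -0.26 to -0.51 without low-dose replicate 3 (adjusted p = 0.0497), SESN1 from -0.51 to -0.90 without high-dose replicate 3 (adjusted p = 0.0363) and RRM2B from -0.34 to -0.44 without high-dose replicate 1 (adjusted p = 0.0487). For MDM2 the intervals of the high minus low difference were -0.36 to 0.30 at 24 h and -0.56 to 0.10 at 48 h. Centring moved the split of all genes between the doses from 76 higher and 411 lower to 144 and 233 at 24 h, and from 716 and 1922 to 1301 and 1329 at 48 h; under it CDKN1A was higher at the high dose at 48 h (0.30, adjusted p = 0.0393).

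Whether a difference from vehicle itself changed with time was tested as an interaction. The Di differences of 4 members grew between 12 and 48 h, against 29% of all genes called in either direction: CDKN1A by 1.32 ± 0.14, MDM2 by 0.82 ± 0.23, GDF15 by 1.56 ± 0.27 and ZMAT3 by 1.36 ± 0.19. Under CdCl the change was called for 3 members, against 24.2%, and they went different ways. GDF15 (-0.95 ± 0.27) and FAS (-0.90 ± 0.29) went down relative to vehicle, and ZMAT3 (0.88 ± 0.19) went up; the change of CDKN1A was 0.08 ± 0.14 (95% interval -0.21 to 0.38). With the first set fitted alone the change of SESN1 under CdCl (-0.85, adjusted p = 0.00841) and that of TP53INP1 under Di (0.59, adjusted p = 0.0405) passed as well. The FAS call (adjusted p = 0.025) was lost on leaving out any 1 of 5 arrays: replicate 3 of the 12 h vehicle, replicate 2 of the 48 h vehicle, replicates 1 and 2 of CdCl at 12 h and replicate 2 of CdCl at 48 h (adjusted p 0.0512 to 0.0605). From 24 to 48 h 3 members changed at the high Kbr dose, against 15% of all genes, and 3 at the low dose, against 4.35%; the doses share their vehicle arrays. At the high dose CDKN1A moved by 0.90 ± 0.14, GDF15 by 1.46 ± 0.27 and TP53INP1 by -1.20 ± 0.25. SESN1 did not pass there (-1.07 ± 0.43, adjusted p = 0.0946). It passed as falling without replicate 3 of the high dose at 24 h (-1.51, adjusted p = 0.0114) or at 48 h (-1.45, 0.0134). Without replicate 3 of the 48 h vehicle SESN1 passed too (-1.32, 0.043). At the low dose CDKN1A moved by 0.68 ± 0.14, GDF15 by 1.47 ± 0.27 and TP53INP1 by -0.99 ± 0.25. With the replicate block 2668 genes in place of 1663 changed at the high dose and 1243 in place of 482 at the low dose, and the calls of the members were kept. With the Kbr set fitted alone none of the 3 passed at the low dose (adjusted p = 0.111, 0.0979 and 0.121 in the same order), nor did TP53INP1 on leaving out any 1 of 5 arrays: replicate 3 of the 24 h vehicle, replicate 2 of the 48 h vehicle, and low-dose replicates 1 at 24 h and 1 and 2 at 48 h (adjusted p 0.0533 to 0.0856). Centring changed the split of all genes for CdCl from 1824 up and 863 down to 1361 and 1044, and for the low Kbr dose from 282 and 200 to 181 and 236; the median of all genes in the CdCl change was 0.12.

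**Figure D4:**
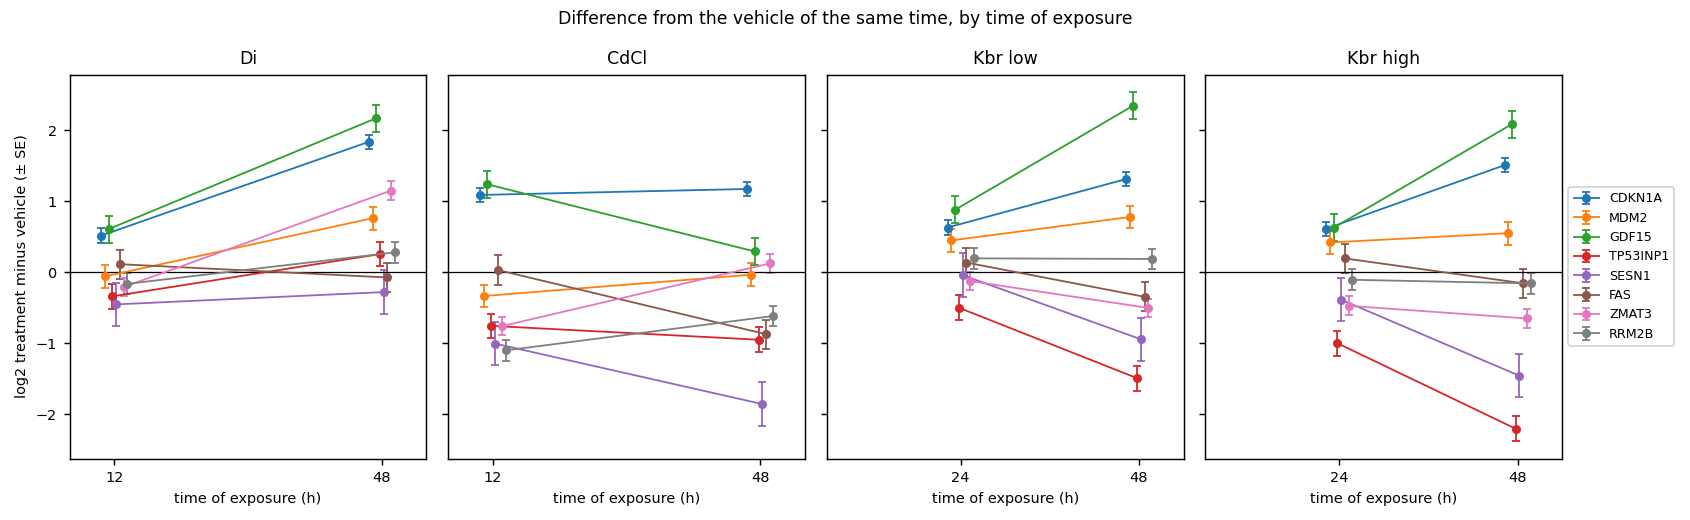
Log2 difference from the vehicle of the same time (points, ± SE) of the 8 p53 target genes at the early and late time of each treatment (panels); lines join a gene's values. Under Di the CDKN1A, GDF15, ZMAT3 and MDM2 lines climb, while under CdCl the CDKN1A line is flat and the GDF15 line drops.

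The p53 targets also changed with time in cells given only vehicle. Between 12 and 48 h, 4 of 8 members changed, against 45.7% of all genes: GDF15 rose by 2.31 ± 0.19 (adjusted p = 1.27e-10), CDKN1A by 0.40 ± 0.10 and ZMAT3 by 0.41 ± 0.13, and FAS fell by 0.79 ± 0.21. The vehicle rise of GDF15 was 4.98-fold, beside a 4.50-fold rise over vehicle with Di at 48 h. The ZMAT3 change was lost without 48 h vehicle replicate 2 (0.34, adjusted p = 0.0687). Without that array RRM2B passed as lower at 48 h (-0.39, adjusted p = 0.0417). SESN1 passed as lower with the first set fitted alone (-0.68, adjusted p = 0.00213). Between 24 and 48 h in the Kbr set GDF15 alone changed (0.85 ± 0.19), 1 of 8 against 12.2%; this call was lost with that set fitted alone (adjusted p = 0.059), and with the replicate block 2498 genes in place of 1358 were called. At 48 h the vehicle of the Kbr set differed from that of the CdCl and Di set in 3 of 8 members, against 51%: CDKN1A (-0.86 ± 0.10) and GDF15 (-1.60 ± 0.19) were lower and FAS (0.68 ± 0.21) higher. MDM2, at -0.31 (adjusted p = 0.109), passed as lower with median centring (0.0278), quantile normalization (0.0442) and the mean of probe sets (0.0196). Set and whatever else differed between the 2 experiments cannot be told apart in that comparison. Differences from each set's own vehicle were therefore set against each other at 48 h. The Di and high-dose Kbr differences were unlike in 3 of 8 members, against 43.5%: TP53INP1 (2.46 ± 0.25), ZMAT3 (1.80 ± 0.19) and SESN1 (1.18 ± 0.43) were higher with Di. For GDF15 that difference of differences was 0.08 ± 0.27 (95% interval -0.47 to 0.64) and for CDKN1A 0.33 ± 0.14 (0.03 to 0.62), which did not pass the adjusted test (adjusted p = 0.0656). CdCl and high-dose Kbr were unlike in 5 of 8, against 50.1%: GDF15 (-1.79 ± 0.27), FAS (-0.72 ± 0.29) and MDM2 (-0.59 ± 0.23) were lower with CdCl, and TP53INP1 (1.25 ± 0.25) and ZMAT3 (0.77 ± 0.19) higher. CDKN1A was at -0.34 there (adjusted p = 0.053), and with the replicate block it passed in both comparisons (adjusted p = 0.0428 for Di and 0.0348 for CdCl). For CdCl, CDKN1A also passed with the filter at 6 (0.048), median centring (0.0421) and an intensity trend of the variance (0.0451). It did so too without CdCl replicate 1 (0.0413) or Kbr vehicle replicate 1 (0.00872) or 3 (0.0414). For Di it passed without Kbr vehicle replicate 2 (0.00207). RRM2B, at 0.44 for Di (adjusted p = 0.091) and -0.46 for CdCl (adjusted p = 0.0679), passed in both with arrays centred on their medians (0.045 and 0.0237). For CdCl RRM2B also passed after quantile normalization (0.0343). The calls of MDM2 (adjusted p = 0.0331), FAS (adjusted p = 0.0426) and, for Di, SESN1 (adjusted p = 0.0279) were lost without the filter (0.058, 0.0807 and 0.0594). The FAS call was also lost after quantile normalization (0.0663). Leaving out single arrays ended the MDM2 call in 6 of 12 fits (adjusted p 0.0553 to 0.102): 48 h vehicle replicates 1 and 2 and CdCl replicate 2 of the first set, and vehicle replicate 1 and high-dose replicates 1 and 2 of the Kbr set. It ended the FAS call in 8 of 12 fits (0.0539 to 0.201): replicates 1 and 2 of vehicle and of CdCl in the first set, and vehicle replicates 1 and 2 and high-dose replicates 2 and 3 of the Kbr set. Without high-dose replicate 3 the FAS value was -0.39. It ended the SESN1 call in 6 of 12 fits (0.0506 to 0.119): vehicle replicate 2 and Di replicate 3 of the first set, and vehicle replicates 1 and 2 and high-dose replicates 1 and 2 of the Kbr set.

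Several members are read by more than 1 probe set. The 4 FAS probe sets that passed the filter gave -1.09 to -0.87 with CdCl at 48 h. With CdCl at 12 h, where FAS did not pass the test, the same 4 spanned -0.13 to 0.46 and disagreed on the sign. The 5 ZMAT3 probe sets gave 0.80 to 1.47 with Di at 48 h and -0.95 to -0.47 with high-dose Kbr at 48 h. With Di at 12 h the same 5 spanned -0.37 to 0.53, so that they disagreed on the sign where the gene did not pass the test. For MDM2, 3 of 10 probe sets passed, with values of 0.17 to 0.78 with Di at 48 h. They gave 0.22 to 0.78 with low-dose and 0.08 to 0.55 with high-dose Kbr at 48 h. The 7 others were dim. GDF15 and TP53INP1 had 1 passing probe set of 3 each, and CDKN1A, SESN1 and RRM2B had a single one.

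The other genes of the pathway were taken from 3 lists. Of 32 other p53 target genes, 28 were tested, and they too went both ways. The shares of all genes that rose and fell are those given above for each comparison and are repeated in brackets. With Di at 48 h 11 rose and 4 fell (19.1% and 23.9% of all genes), led by SFN, an epithelial 14-3-3 protein that holds the cell cycle (2.39), PHLDA3, which restrains AKT (2.08), and AEN, an apoptosis-enhancing nuclease (1.80). With Di at 12 h 3 rose and 0 fell (1.67% and 4.6%): BAX, which permeabilises mitochondria (1.28), PMAIP1, the BH3-only protein NOXA (0.96), and TRIAP1 (0.27). The TRIAP1 call was lost on leaving out any vehicle array or Di replicate 2 or 3 (adjusted p 0.0567 to 0.135). CdCl at 12 h raised 6 and lowered 10 (13.4% and 30.5%), with GADD45A, a DNA damage response gene, at 3.01, PMAIP1 at 2.44 and DDB2, which recognises ultraviolet lesions in DNA, at -2.13. At 48 h CdCl raised 10 and lowered 5 (20.7% and 22%), led by GADD45A (2.04), SFN (1.56) and PHLDA3 (1.40). Under Kbr PMAIP1 rose, DDB2 fell and, except at the low dose at 24 h, CYFIP2, a gene linked to actin regulation, fell. These changes were not confined to Kbr: CYFIP2 also fell at 48 h with Di (-1.26) and CdCl (-0.92), and DDB2 with CdCl at 12 h. High-dose Kbr raised 6 and lowered 10 at 24 h, against 15.4% and 25.3% (DDB2 -2.07, PMAIP1 1.82, CYFIP2 -1.54). At 48 h it raised 9 and lowered 10, against 27.3% and 34.5% (CYFIP2 -3.61, PMAIP1 2.76, DDB2 -2.56). The low dose raised 2 and lowered 6 at 24 h, against 6.93% and 8.28% (DDB2 -1.17, PMAIP1 1.15, BTG1 -0.59). The BTG1 call was lost without the filter, with the mean of its probe sets, with the Kbr set fitted alone and without vehicle replicate 1 or 2 or low-dose replicate 1 or 3 (adjusted p 0.0539 to 0.191). At 48 h it raised 8 and lowered 12, against 23.8% and 23.2% (PMAIP1 2.04, GADD45A 1.78, CYFIP2 -1.52). With high-dose Kbr at 48 h both counts of the 28 are near the background shares. PMAIP1 passed the test in all 8 comparisons, as CDKN1A did. The list's median difference was 0.23 with Di at 48 h, where that of all genes was -0.01, and -0.07 with high-dose Kbr at 48 h, where that of all genes was -0.06.

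**Figure D5:**
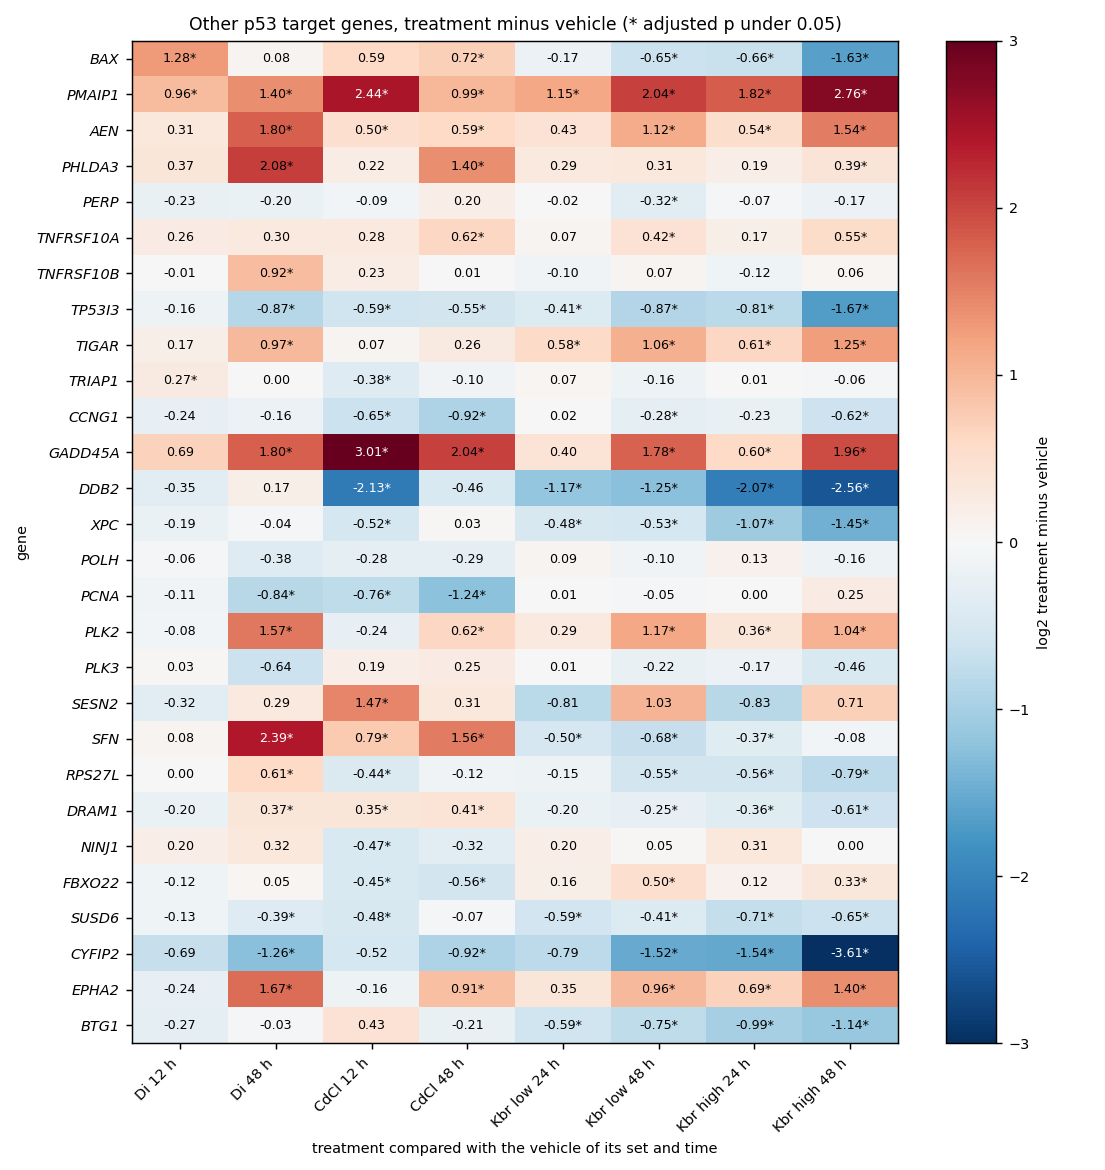
Log2 difference from vehicle of the 28 other p53 target genes tested (rows) in the 8 comparisons (columns), with colour and printed value; an asterisk marks an adjusted p under 0.05. PMAIP1 is red with an asterisk in every column, while DDB2, XPC and BTG1 are blue under Kbr.

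Of 13 genes for p53 and its regulators, 10 were tested. With Di at 12 h none passed limma's adjusted threshold, against 1.67% of all genes that rose and 4.6% that fell. Of the 10, 2 had an unadjusted p under 0.05 there. With low-dose Kbr at 24 h only USP7, a deubiquitinase that acts on MDM2 and p53, rose (0.38) and 0 fell, against 6.93% and 8.28%. USP7 rose in all 4 Kbr comparisons, with 1.03 at the high dose at 48 h, and with Di at 48 h (0.55). ATM, the kinase that signals double-strand breaks, fell with high-dose Kbr at 24 h (-0.64) and 48 h (-1.34) and with the low dose at 48 h (-0.89). The 24 h call (adjusted p = 0.0441) was lost without the filter, with median centring, with quantile normalization and with the Kbr set fitted alone (0.0847 to 0.111), and without vehicle replicate 1 or 2 or high-dose replicate 1 or 3 (0.12 to 0.262); without vehicle replicate 2 it was -0.39. The checkpoint kinase CHEK1 fell with Di at 48 h (-1.32) and with CdCl at 12 h (-0.41) and 48 h (-1.07), and rose at 48 h with the high (0.83) and low (0.52) Kbr dose. Its 12 h call was lost without the filter, with median centring, with the first set fitted alone and without vehicle replicate 1 or 3 or CdCl replicate 1 or 2 (adjusted p 0.0518 to 0.191), and its low-dose call without vehicle replicate 1 (0.37, adjusted p = 0.0827). HIPK2, a kinase that phosphorylates p53, rose with CdCl at both times (0.83 and 0.62) and with Di at 48 h (1.31), and fell with low-dose Kbr at 48 h (-0.46, adjusted p = 0.0122; 0.0503 with the Kbr set fitted alone, and 0.0768 and 0.0775 without vehicle replicate 1 or low-dose replicate 2). PPM1D fell with CdCl at 48 h (-0.94) and rose with high-dose Kbr at 24 h (0.40) and 48 h (0.64). Its 24 h call was lost with the Kbr set fitted alone and without vehicle replicate 1 or 3 or high-dose replicate 1 or 2. With CdCl at 12 h ATR (-0.57) and TP53BP1 (-0.48) fell, the latter not with the mean of its probe sets (-0.09). CHEK2 rose at 48 h with the low (0.59) and high (0.60) Kbr dose and fell with Di (-0.40, not called with median centring). Counts of risen and fallen regulators were 3 and 3 with Di at 48 h (19.1% and 23.9% of all genes), 1 and 3 with CdCl at 12 h (13.4% and 30.5%) and again at 48 h (20.7% and 22%). With high-dose Kbr they were 2 and 2 at 24 h (15.4% and 25.3%) and 4 and 1 at 48 h (27.3% and 34.5%), and with low-dose Kbr 4 and 2 at 48 h (23.8% and 23.2%). With Di and CdCl these counts of 10 are near the background shares.

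Of 12 cyclins, cyclin-dependent kinases and their inhibitors, the machinery on which p21 acts, 11 were tested. Di at 48 h lowered 6 and raised 3 (23.9% and 19.1% of all genes), with the S-phase cyclin CCNE2 at -2.98, the kinase inhibitor CDKN2B at 2.63 and CCND1 at 1.48. CdCl lowered 6 and raised 3 at 12 h, against 30.5% and 13.4% (CCNE2 -1.53, CCNE1 -1.09, CCNA2 -1.02), and lowered 4 and raised 5 at 48 h, against 22% and 20.7% (CDKN2B 1.78, CCND1 1.70, CCNE2 -1.64). Under Kbr CCNA2 rose in all 4 comparisons, by 0.52 and 0.69 at 24 h and by 0.67 and 0.78 at 48 h for the low and high dose. CCNE2 rose at 48 h at both doses (0.51 and 0.82), and CDK6 fell (-0.66 and -1.02). CDK2 fell at the high dose at 24 h (-0.66). Of the 11, the low dose raised 1 and lowered 0 at 24 h, against 6.93% and 8.28% of all genes. At 48 h the low dose raised 2 and lowered 4, against 23.8% and 23.2%. The high dose raised 1 and lowered 1 at 24 h, against 15.4% and 25.3%. At 48 h the high dose raised 3 and lowered 3, against 27.3% and 34.5%. Calls at the low dose were lost for CCNA2 at 24 h without vehicle replicate 1 or 2 (adjusted p = 0.056 and 0.0525), for CCNE2 at 48 h without vehicle replicate 1 (0.0585) and for CDK6 with the mean of its probe sets (-0.25, adjusted p = 0.279). CDKN1A thus stood higher at 48 h beside lower CCNE2 under Di and CdCl and beside higher CCNE2 under Kbr. That split was not shared by CCNE1, which at 48 h fell with Di (-0.73) and with low-dose Kbr (-0.40). CCNE1 did not pass with CdCl (-0.05) or high-dose Kbr (-0.02). Its low-dose call was lost with the Kbr set fitted alone (adjusted p = 0.0516). The 48 h vehicles of the sets also differed, in 51% of all genes. Of the 11, 9 were higher and 1 lower in the vehicle of the Kbr set. With Di at 12 h none of the 11 passed by limma's adjusted p, against 1.67% of all genes that rose and 4.6% that fell, and 0 had an unadjusted p under 0.05.

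Across the 12 group means, which share arrays, vehicle changes and set, CDKN1A and GDF15 ran together (Pearson r = 0.84), as did TP53INP1 and SESN1 (r = 0.85). CDKN1A and FAS ran apart (r = -0.61), as did GDF15 and FAS (r = -0.68). The tested genes whose 12 group means were most like a member's, over all 11092, were ABHD3 (r = 0.97) and SLC35G2 (0.96) for CDKN1A, CREBBP (0.98) and VEGFA (0.97) for GDF15, and NEK4 (0.93) and CDADC1 (0.92) for MDM2. SLC40A1 and TMEM254 (both 0.97) were most like TP53INP1, RDH11 (0.96) and ING5 (0.94) most like SESN1, and NFYB and SKI (both 0.97) most like FAS. ZMAT3 was most like PLAAT4 (0.95) and CHFR (0.94), and RRM2B most like LSM14B (0.93) and FOXJ2 (0.92). These are descriptions of 12 points each, chosen as the highest of many.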

How the data were processed

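RNA from HK-2 cultures was hybridised to 36 single-colour arrays of 54675 probe sets, and the deposited values are on a log2 scale, made with GCRMA (version not given in the sources used here), per the submitters' processing notes. GCRMA shrinks dim probe sets to a common background. The deposited values ran from 0.71 to 16.14, and array medians from 2.91 to 3.02. The number of arrays, 3 a group, limits the precision. Of 41097 probe sets with 1 gene symbol in the platform annotation, 20444 were above 4 on at least 3 arrays. Each of 11092 genes was represented by its brightest such probe set. The 12 group means were fitted in limma 3.58.1 (R 4.3.3) over all 36 arrays (24 residual degrees of freedom), with empirical Bayes variances, two-sided tests and Benjamini-Hochberg adjustment over all genes at 0.05, in 21 comparisons. The code was tested on simulated data. The 9 members, the pathway lists and the tests were chosen with earlier results of these data known, so they are not independent support. Named genes were the members, up to 3 called genes of each list with the largest difference in a comparison, and the 2 genes most like each member. In the Kbr set, deviations of arrays with the same replicate number correlated in all 45 pairs (0.22 to 0.70). All 18 arrays of that set were closest to their own number. The main fit has no term for this pairing, so its standard errors, intervals and p-values for Kbr leave it out. The pairing entered only in the alternative with the replicate number as a block. Alternatives were no filter or one at 6, median centring, quantile normalization, averaging all passing probe sets of a gene, an intensity trend of the variance, each set fitted alone, the replicate number as a block, and each array left out in turn.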

Additional observations from a re-analysis of the deposited data

Results flagged for a closer look

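The changes of p53 target genes between times or treatments listed here passed a test of the difference itself, an interaction term in limma over all 11092 genes. Between 12 and 48 h of Di, the difference from vehicle grew for CDKN1A by 1.32 (adjusted p = 5.2e-08), for MDM2 by 0.82 (0.00715), for GDF15 by 1.56 (5.78e-05) and for ZMAT3 by 1.36 (2.38e-06). Under CdCl the same change was -0.95 for GDF15 (0.0116), -0.90 for FAS (0.025) and 0.88 for ZMAT3 (0.00115). Between 24 and 48 h of high-dose Kbr it was 0.90 for CDKN1A (0.000132), 1.46 for GDF15 (0.000578) and -1.20 for TP53INP1 (0.00147). At the low dose it was 0.68 for CDKN1A (0.00942), 1.47 for GDF15 (0.00379) and -0.99 for TP53INP1 (0.0223). With the Kbr set fitted alone none of these low-dose changes passed (0.111, 0.0979 and 0.121 in the same order). The TP53INP1 call at the low dose and the FAS call under CdCl were each lost on leaving out any 1 of 5 arrays.

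At 48 h the CdCl difference minus the high-dose Kbr difference was -0.59 for MDM2 (adjusted p = 0.0331), -1.79 for GDF15 (3.46e-06), 1.25 for TP53INP1 (0.000119), -0.72 for FAS (0.0426) and 0.77 for ZMAT3 (0.0011). The Di difference minus the high-dose Kbr difference was 2.46 for TP53INP1 (6.52e-09), 1.18 for SESN1 (0.0279) and 1.80 for ZMAT3 (1.22e-08). These last values set 2 experiments against each other, each relative to its own vehicle. The MDM2, FAS and SESN1 calls were lost without the filter (adjusted p = 0.058, 0.0807 and 0.0594). They were also lost in 6, 8 and 6 of 12 fits that left out 1 array.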

How the results depend on the processing

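Among the comparisons with vehicle, the rise of CDKN1A was called under every alternative run. GDF15 with Di at 12 h (adjusted p = 0.0528) passed with the filter at 6, median centring, the intensity trend, the set fitted alone and the replicate block (0.000712 to 0.0479), each of which gave 2 members called in place of 1. For low-dose Kbr at 24 h, 4 members in place of 2 passed with median centring, quantile normalization, the mean of probe sets and the replicate block. Between the Kbr doses, 2 members passed at 48 h with median centring, and 1 in place of 0 at 24 h with the block. Without the filter 3 members in place of 5 differed between the CdCl and high-dose Kbr responses. With the mean of probe sets 5 members in place of 3 differed between the 48 h vehicles, where ZMAT3 turned from 0.15 to -0.30; TP53BP1 with low-dose Kbr at 48 h turned from 0.07 to -0.48. The cause was not tested.

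With each set fitted alone the genes called were 1446 (Di, 12 h, in place of 695), 933 (low-dose Kbr, 24 h, 1687), 108 (Kbr doses, 24 h, 487), 870 (high-dose change with time, 1663), 6 (low-dose change, 482) and 633 (Kbr vehicle with time, 1358), and 0 members kept a call in the low-dose change and in the Kbr vehicle change. With the replicate block they were 1662, 2720, 1171, 2668, 1243 and 2498 in the same order. In the CdCl and Di set the numbers did not pair the arrays: 8 of 45 same-number pairs correlated over 0.1 and 5 of 18 arrays were closest to their own number. No other count of members moved by more than 1.5 times under the block.

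Leaving out single arrays gave 286 to 613 genes for Di at 12 h (lowest without vehicle replicate 3), 824 to 1882 for low-dose Kbr at 24 h (lowest without vehicle replicate 1), and 196 to 378 between the Kbr doses at 24 h (lowest without low-dose replicate 1). It gave 1054 to 2127 for the high-dose change, 110 to 949 for the low-dose change and 387 to 1765 for the Kbr vehicle change, each lowest without 24 h vehicle replicate 3. Members called ranged from 3 to 5 for high-dose Kbr at 24 h (lowest without vehicle replicate 1), from 1 to 2 between the doses at 48 h and from 3 to 7 between the CdCl and high-dose Kbr responses. With 3 arrays a group, calls near the threshold were gained or lost with a single array, and probe sets near background have little signal in which a difference could show.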
